A study of Mus musculus with 15 samples.

Results

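The genes described here are 9 components of the actin cytoskeleton, the filamins Flna and Flnc, the alpha-actinin Actn1, the tropomyosins Tpm1 and Tpm2, and the contractile genes Acta2, Tagln, Cnn1 and Myl9. They were selected by gene symbol around Flnc, which was far higher in NMuMG cells after knockdown of PCBP1, so the values of that contrast chose the family and are given below as a description with no test. All 9 were listed among the 15023 genes of the knockdown dataset. In the knockout dataset 8 of the 9 were listed among 13893 genes (Myl9 was not), and 7 passed the filter of a mean of at least 0.5 CPM (read counts scaled to the total of the library) that left 12621 genes for testing.

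NMuMG is an epithelial line from normal mouse mammary gland, and every sample was RNA-Seq of such cells, with values deposited as CPM. The knockdown dataset held 2 libraries of control NMuMG cells, which the labels give as untreated and the paper describes as carrying a scrambled shRNA, and 2 libraries of shPCBP1 cells, in which a lentiviral shRNA lowers Pcbp1. The knockout dataset held 1 library per line. Its 4 shPCBP1 lines were the unaltered one and 3 control clones, called CT clones 1 to 3, that were grown from single cells given Cas9 without a guide. The other 7 lines were 3 clones without FAM3C (FAM3C KO), 3 without LIFR (LIFR KO) and 1 double KO of both genes. The knockout clones were grown from single cells electroporated with Cas9 and guide pairs that excise coding sequence, and all 11 lines of that dataset carry the PCBP1 shRNA, so it has no line with normal Pcbp1. Libraries of 1 group are separate lines or replicates by label, nothing says that the replicates of the knockdown dataset were separate cultures, and p-values measure the spread between these libraries. In bulk RNA, fewer cells of a type and less RNA per cell cannot be told apart.

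Filamins are long rod-like proteins that crosslink actin filaments and tie them to receptors at the cell membrane. Flna is the widely expressed member, and Flnc is best known from skeletal and cardiac muscle. Alpha-actinins bundle actin in stress fibers, and tropomyosins wind along the filament and set which myosins and other proteins can bind it. Acta2 (smooth muscle actin), Tagln (transgelin), Cnn1 (calponin) and Myl9 (a myosin regulatory light chain) mark smooth muscle, myofibroblasts and, in the mammary gland, the myoepithelial layer that squeezes milk from the luminal cells. Many of these genes are known targets of serum response factor (SRF), which binds the CArG box and is switched on by the actin-sensing coactivators Mrtfa and Mrtfb.

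Because many members are known to share this regulator, the 250 bases before each RefSeq transcription start (GRCm38.p6) were searched for the CArG box and for a CArG-like element, in which 1 base of the A/T centre is G or C. The pattern is its own reverse complement, so that 1 search covers both strands. Windows were found for 8 members (Tagln had none), and Flnc had windows at a pair of start sites. A CArG box lay in the window of 1 member, Myl9, and a box or a CArG-like element lay in windows of 3 of 8 members, Flnc, Acta2 and Myl9. Of 32851 windows of all genes, 1.47% held a box and 8.59% held a box or a CArG-like element. The windows of those 3 genes are shown with the elements in capitals, and that of Flna, the filamin member with no element in this window, is shown for comparison. The Flna window lies inside the gene as annotated in GENCODE, which reaches to 74249820, so the bases before that upstream end were not searched.
Flnc (chr6:29432903-29433152, plus strand): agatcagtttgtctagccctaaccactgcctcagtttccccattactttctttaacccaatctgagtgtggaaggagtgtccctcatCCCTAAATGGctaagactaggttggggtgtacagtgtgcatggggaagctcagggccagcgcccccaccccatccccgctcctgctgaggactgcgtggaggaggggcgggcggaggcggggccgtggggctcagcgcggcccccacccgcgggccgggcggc
Acta2 (chr19:34255374-34255623, minus strand): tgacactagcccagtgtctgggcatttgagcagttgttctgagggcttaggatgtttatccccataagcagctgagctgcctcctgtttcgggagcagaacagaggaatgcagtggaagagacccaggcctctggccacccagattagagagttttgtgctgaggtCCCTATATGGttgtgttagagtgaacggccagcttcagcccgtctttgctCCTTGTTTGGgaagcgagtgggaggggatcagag
Myl9 (chr2:156775214-156775463, plus strand): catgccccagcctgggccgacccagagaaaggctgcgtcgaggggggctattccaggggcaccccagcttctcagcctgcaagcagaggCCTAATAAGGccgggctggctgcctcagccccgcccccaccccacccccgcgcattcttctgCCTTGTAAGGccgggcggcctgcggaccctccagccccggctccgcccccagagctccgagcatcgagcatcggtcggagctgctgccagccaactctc
Flna (chrX:74246535-74246784, minus strand): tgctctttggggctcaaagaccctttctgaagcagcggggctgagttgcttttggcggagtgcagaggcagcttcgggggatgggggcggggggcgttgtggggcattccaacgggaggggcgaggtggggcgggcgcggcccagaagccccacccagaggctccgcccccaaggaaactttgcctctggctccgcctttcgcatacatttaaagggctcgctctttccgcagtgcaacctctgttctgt
The element of Flnc, CCCTAAATGG, began 163 bases before the upstream start of the pair and was outside the window of the other start. Acta2 held CCCTATATGG, beginning 84 bases before the start, and CCTTGTTTGG, beginning 34 bases before it. In Myl9 the box CCTAATAAGG began 161 bases before the start and the CArG-like CCTTGTAAGG began 99 bases before it. These matches are letters in a window and were not tested for binding.

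Pcbp1, the target of the shRNA, was at 287 and 312 CPM in the control NMuMG libraries and at 14.1 and 14.2 CPM in shPCBP1. Fam3c ranged from 26.4 to 42.9 CPM in FAM3C KO and from 47.0 to 59.4 CPM in shPCBP1, and Lifr ranged from 14.6 to 34.9 CPM in LIFR KO and from 25.8 to 40.2 CPM in shPCBP1; excision of coding sequence can leave most of a transcript to be counted, so the overlap for Lifr does not check the labels. The spacing of the low values gave what 1 read was worth, 0.0213 to 0.0624 CPM in the knockout dataset (library totals of about 16000000 to 46900000 reads) and 0.0177 to 0.0189 CPM in the knockdown dataset (about 53000000 to 56500000 reads). A gene without reads is listed at that same step in the first dataset and at 0.0001 CPM in the second. LIFR KO clones 2 and 3 and the double KO stood apart from the other lines by GC content, since the deviation of a gene from its median over lines correlated across genes with GC at a Spearman correlation of -0.735, -0.763 and -0.718 in them, and at 0.00934 to 0.498 in the other 8 lines. Genes of 1 library are not independent replicates, and these correlations are a description.

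Both datasets carried some of the epithelial markers, while the genes that define contractile cells were low. Of the epithelial list, Epcam and Cldn3 were in neither dataset. Cldn4, listed in the knockdown dataset only, reached at most 0.124 CPM, and Cldn7, listed in the knockout dataset only, at most 0.525 CPM. Of 8 epithelial markers 5 were listed in each dataset, and 4 of them (Cdh1, Krt8, Krt18 and Krt19) reached 1 CPM in every group, with a summed level in the knockout dataset of 2466 to 3166 CPM in shPCBP1, 2001 to 3024 CPM in FAM3C KO, 1212 to 2092 CPM in LIFR KO and 1817 CPM in the double knockout. In the knockdown dataset the sum was 2917 to 2970 CPM in the control libraries and 2766 to 2823 CPM in shPCBP1, where Cdh1, the E-cadherin gene, was at 149 CPM beside 232 to 237 CPM in the controls. Of 5 myoepithelial markers, 1 was listed in the knockout dataset and 5 in the knockdown dataset, and none of them reached 1 CPM in a library, and Krt17 was at the value that stands for no reads in all 4 libraries of the knockdown dataset. Of 8 smooth muscle markers other than the members, the 6 listed in the knockdown dataset summed to 0.321 to 0.337 CPM in the control libraries and to 0.961 to 0.965 CPM in shPCBP1. Fibroblast markers (3 of 8 listed) summed to 0.638 to 0.830 CPM and 0.758 to 0.896 CPM in the same groups, and leukocyte and endothelial markers (3 of 3) to 0.0192 to 0.0888 CPM and 0.296 to 0.323 CPM. In the knockout dataset the smooth muscle markers (5 of 8 listed) summed to 2.20 to 3.47 CPM in shPCBP1, 2.95 to 4.40 CPM in FAM3C KO and 1.71 to 2.52 CPM in LIFR KO. The fibroblast markers (4 of 8) summed to 2.34 to 4.93 CPM, 5.30 to 5.53 CPM and 2.37 to 3.22 CPM, and the leukocyte and endothelial markers (2 of 3) to at most 2.00 CPM. The part of such cells in the results was not tested. The members Acta2, Tagln, Cnn1, Tpm2 and Myl9 stayed under 1 CPM in all 4 libraries of the knockdown dataset, and none of the listed ones passed 5 CPM in the knockout dataset.

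The first comparison asked how the family differed between NMuMG cells with and without PCBP1 knockdown. The filamin Flnc (ENSMUSG00000068699, chromosome 6 of GRCm38, from 29433256 to 29461883 on the plus strand) read 0.0355 and 0.0190 CPM in the control libraries and 91.2 and 91.4 CPM in the shPCBP1 libraries. Put into reads, that was 2 and 1 against 5092 and 4946, so the controls held almost no Flnc RNA and the shPCBP1 libraries held it at the level of a well expressed gene. The ratio was 3334. It rests on 3 reads in the controls and is a description of the values that chose the family. The difference was 9.49 on the log2(CPM + 0.1) scale, which understates the ratio.

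The second filamin member, Flna (ENSMUSG00000031328, chromosome X from 74223461 to 74249820 on the minus strand), read 387 and 388 CPM in the controls and 468 and 456 CPM in shPCBP1. The difference was 0.25 on the log2 scale, or 0.13 after correction for the GC content of the genes or quantile normalization.

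Flna and Flnc can be compared within a library per kilobase of exon, which scales for gene length. Exon length here is the union of the exons of all annotated transcripts of a gene, and the transcripts expressed can be shorter. In the control libraries Flnc made up 0.00917% and 0.00488% of the summed Flna and Flnc level in CPM per kb, and in shPCBP1 it made up 16.3% and 16.7%. The sum was 41.2 and 41.3 CPM per kb in the controls and 59.5 and 58.3 CPM per kb in shPCBP1. Both genes had higher values in shPCBP1, and Flna remained the larger in every library.

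**Figure D1:**
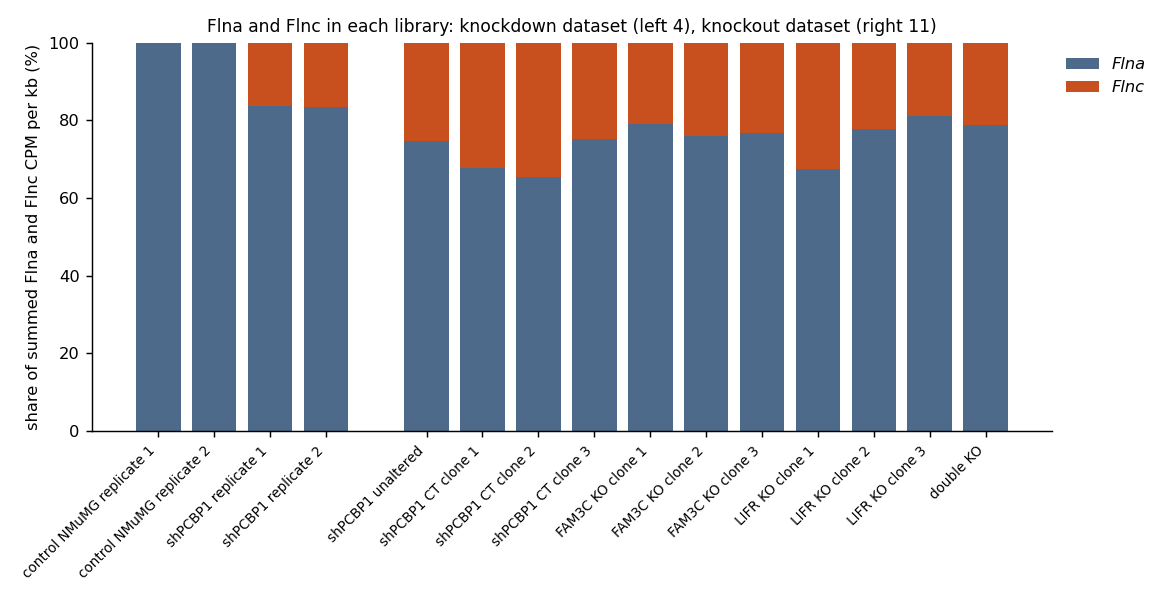
Share of Flna and of Flnc in their summed level in a library, as CPM per kb of exon in percent, for the 4 libraries of the knockdown dataset (left) and the 11 of the knockout dataset (right), 1 bar per library. Flnc is not visible in the control NMuMG bars, takes 16.3% and 16.7% in shPCBP1 of the same dataset, and between 18.996% and 34.7% in the lines of the knockout dataset.

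Actn1, a non-muscle alpha-actinin (ENSMUSG00000015143, chromosome 12 from 80167547 to 80260371, minus strand), read 38.4 and 39.6 CPM in the controls and 84.3 and 85.2 CPM in shPCBP1, a log2 difference of 1.12. No test was made on this difference, since the contrast chose the family. Its paralog Actn4 was at 192 and 191 CPM in the controls and 212 and 207 CPM in shPCBP1 (log2 fold change 0.12, SE 0.0220, adjusted p = 3.25e-04). Of the summed Actn1 and Actn4 level per kb, Actn1 made up 18.1% and 18.6% in the controls and 30.6% and 31.3% in shPCBP1. In GENCODE M21, 363 and 88 exon bases of Actn1 are shared with the antisense genes Gm47766 and Gm47767 on the other strand. The part of such reads in the Actn1 level was not tested.

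The tropomyosin Tpm1 (ENSMUSG00000032366, chromosome 9 from 67022590 to 67049406, minus strand) read 225 and 229 CPM in the controls and 411 and 407 CPM in shPCBP1, a log2 difference of 0.85. Tpm2 (ENSMUSG00000028464, chromosome 4 from 43514711 to 43523765, minus strand), the isoform gene abundant in muscle, was at 0.0709 and 0.0190 CPM in the controls and at 0.0718 and 0.111 CPM in shPCBP1, which is 4 and 1 reads against 4 and 6. Those libraries overlapped, and a difference in Tpm2 was not detectable at this depth. Per kb, Tpm1 made up 20.7% to 21.2% of the summed Tpm1 to Tpm4 level in the controls and 26.4% to 26.8% in shPCBP1. Tpm3 made up 38.8% to 39.4% and 24.1% to 24.5%, and Tpm4 made up 39.9% and 49.0% to 49.1%. Tpm4 was the largest of them per kb in both groups, a rank that depends on the exon length used. In CPM, Tpm4 lay below both Tpm1 and Tpm3, at 147 and 146 CPM in the controls and 255 and 257 CPM in shPCBP1. Tpm3 was at 402 and 392 CPM in the controls and 347 and 354 CPM in shPCBP1. Tpm4 rose by a log2 fold change of 0.80 (SE 0.0213, adjusted p = 7.01e-11).

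The 4 smooth muscle genes gave few reads in the knockdown dataset, and their values are counts of single reads in some libraries. Tagln (ENSMUSG00000032085, chromosome 9 from 45929619 to 45936058, minus strand) read 0.481 and 0.434 CPM in the controls and 0.427 and 0.382 CPM in shPCBP1, so its 2 highest values were the controls. The ratio of Tagln was 0.877, with an exact 95% counting interval of 0.571 to 1.34 that covers counting error only. Cnn1 (ENSMUSG00000001349, chromosome 9 from 22099216 to 22109630, plus strand), a calponin that binds actin and slows myosin, read 0.177 and 0.0944 CPM in the controls and 0.538 and 0.444 CPM in shPCBP1, or 10 and 5 reads against 30 and 24. The ratio of Cnn1 was 3.59, with an exact 95% counting interval of 2.00 to 6.84 that covers counting error only and is no test. Acta2 (ENSMUSG00000035783, chromosome 19 from 34241090 to 34255590, minus strand) gave 2 and 0 reads in the controls and 1 and 3 reads in shPCBP1. Myl9 (ENSMUSG00000067818, chromosome 2 from 156775420 to 156781658, plus strand) gave 0 reads in both controls and 2 and 1 reads in shPCBP1. No fold is given for Acta2 and Myl9, since both groups were near the limit of 3 reads that a count of 0 allows. In GENCODE M21, 1241 exon bases of Tagln are shared with an antisense gene and 108 with Pcsk7 on the other strand, and Tagln alone among the smooth muscle genes gave fractional reads in some libraries, so its level is uncertain.

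**Figure D2:**
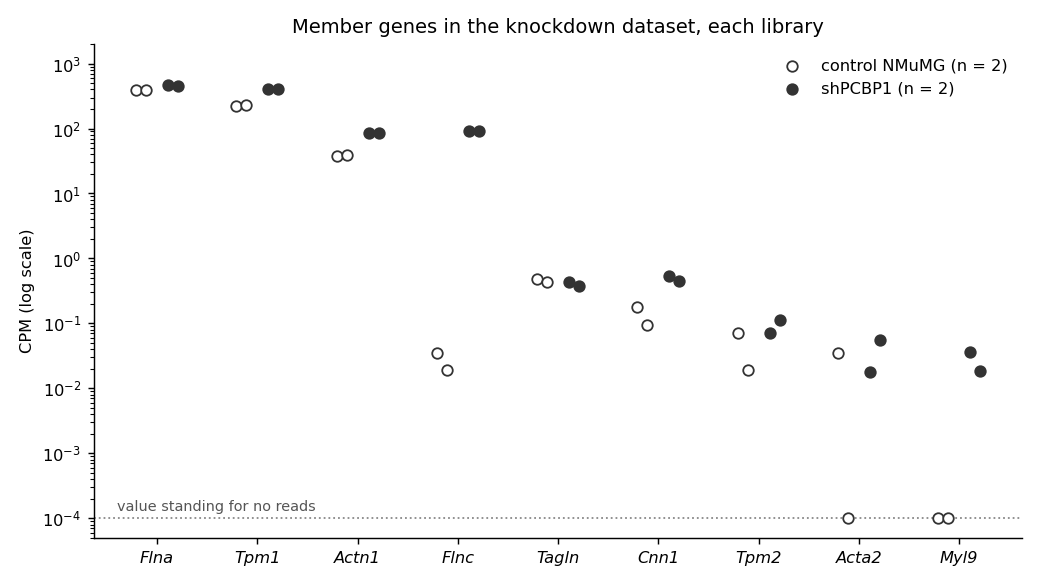
CPM on a log scale of the 9 members in each library of the knockdown dataset, open points for the 2 control NMuMG libraries and filled points for the 2 shPCBP1 libraries. Flnc moves from 0.0355 and 0.0190 CPM to 91.2 and 91.4 CPM, Flna, Tpm1 and Actn1 lie above 30 CPM in every library, and the other 5 lie under 1 CPM.

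The order of the levels per kb of exon changed with the knockdown mainly through Flnc. In the controls the mean CPM per kb ran from Flna (41.2) through Tpm1 (35.0), Actn1 (7.05), Tagln (0.230), Cnn1 (0.0496), Tpm2 (0.0154), Acta2 (0.00811) and Flnc (0.00290) to Myl9, which had no reads. In shPCBP1 it ran from Tpm1 (63.1) through Flna (49.2), Actn1 (15.3), Flnc (9.71), Tagln (0.203), Cnn1 (0.179), Tpm2 (0.0314), Myl9 (0.0235) and Acta2 (0.0167). By mean CPM, without division by exon length, Flna (462) stayed above Tpm1 (409) in shPCBP1. The values of Tpm2, Acta2, Flnc and Myl9 in the controls, and of Tpm2, Myl9 and Acta2 in shPCBP1, rest on at most 6 reads a library, and their order among themselves is not resolved.

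The other actin genes of the knockdown dataset were not used to choose the family and were tested in 4 lists, with limma and Benjamini-Hochberg adjustment over all genes. In that comparison 80.1% of 11384 genes passed an adjusted p of 0.07. Among the listed actin genes 46 of 62 could be tested and 42 of those 46 passed, 26 higher and 16 lower in shPCBP1, with a median log2 fold change of 0.12 against 0.025 over all genes. With so large a share of all genes past the threshold, the count says little about actin genes, and the sizes are the more useful part.

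Among 7 other crosslinkers and bundlers tested, 4 rose and 3 fell. Cttn, the cortical actin binder cortactin, had the largest rise, from 113 to 145 CPM in the group means (log2 fold change 0.36, adjusted p = 1.06e-07). The largest falls were in genes of the microvillus, Vil1 (villin) from 23.1 to 2.76 CPM (log2 fold change -3.02, SE 0.0767, adjusted p = 5.11e-11) and Pls1 (the plastin of microvilli) from 27.8 to 6.01 CPM (-2.19, SE 0.0682, adjusted p = 2.37e-10). The crosslinkers thus changed in both directions, with folds for villin and Pls1 larger than that of Cttn.

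Of 15 other contractile genes tested, 7 rose and 8 fell. Csrp1, a LIM protein of smooth muscle and stress fibers, rose from 23.4 to 62.4 CPM (log2 fold change 1.41, SE 0.0349, adjusted p = 4.28e-11), and Ppp1r12b, a myosin phosphatase subunit, from 17.3 to 38.0 CPM (1.13, SE 0.0415, adjusted p = 8.63e-10). Mylk, the kinase that phosphorylates the myosin light chain, fell from 53.0 and 54.7 CPM to between 4.93 and 5.52 CPM (-3.34, SE 0.0599, adjusted p = 4.55e-12). Synm, an intermediate filament protein, fell from 8.78 to 2.63 CPM (-1.70, SE 0.111, adjusted p = 9.03e-08).

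Among the 4 actins and myosins tested, the cytoplasmic actins Actb (log2 fold change 0.61, adjusted p = 3.91e-10) and Actg1 (0.90, adjusted p = 1.80e-11) had the largest rises, from 803 to 1225 CPM and from 830 to 1548 CPM. Myh14, a nonmuscle myosin heavy chain, fell from 0.742 to 0.409 CPM (-0.73, adjusted p = 0.00361).

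The list of SRF, cytoskeletal signalling and adhesion genes had 20 members tested, of which 12 rose and 4 fell. Zyx (zyxin) rose from 27.9 to 71.2 CPM (log2 fold change 1.35, SE 0.0307, adjusted p = 2.37e-11) and Vcl (vinculin) from 50.9 to 113 CPM (1.14, SE 0.0256, adjusted p = 2.08e-11), both being focal adhesion proteins. Fhl2, a LIM coactivator, fell from 37.0 to 20.2 CPM (-0.87, adjusted p = 6.46e-09), and Limk2, a cofilin kinase, from 30.1 to 24.2 CPM (-0.31, adjusted p = 2.05e-05). Srf itself rose from 22.7 to 29.7 CPM (0.39, SE 0.0382, adjusted p = 2.93e-06) and Mrtfb from 30.3 to 32.7 CPM (0.11, adjusted p = 0.0226). Mrtfa was at 34.4 CPM in the controls and 34.2 CPM in shPCBP1 (-0.01, SE 0.0385, adjusted p = 0.800). Myocd, the smooth muscle coactivator of SRF, had no values in either dataset as used here and was not analysed.

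**Figure D3:**
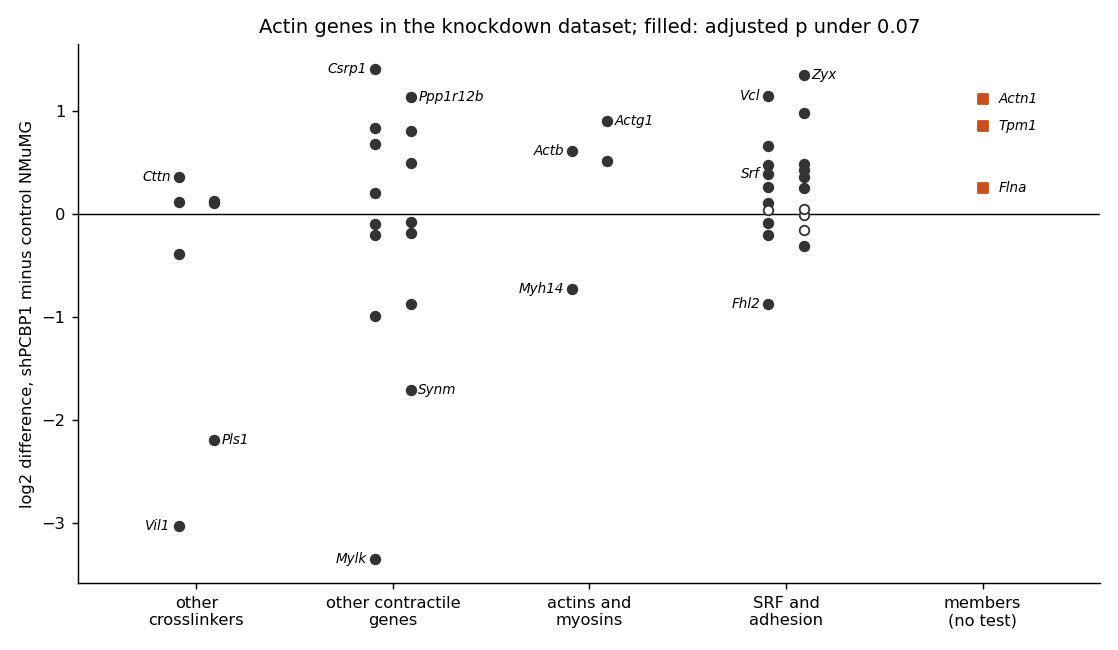
Log2 difference of mean log2(CPM + 0.1) between shPCBP1 and control NMuMG, for the tested genes of the 4 actin lists (circles, filled where adjusted p was under 0.07) and for Flna, Tpm1 and Actn1 of the family (squares, no test). Flnc, at 9.49, lies outside the axis and is not drawn. Rises and falls occur in every list, from Csrp1 at 1.41 to Mylk at -3.34.

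In the knockout dataset the members were compared between shPCBP1 lines and lines labelled as knockouts of FAM3C, a secreted cytokine-like protein, or of LIFR, the receptor for leukemia inhibitory factor. The family was chosen around the knockdown contrast and not around this dataset. The members and tests were, however, chosen with earlier results of these data known. The level order per kb in the 4 shPCBP1 lines was Flna (mean 115 CPM per kb, range 109 to 120), Tpm1 (76.2, range 74.2 to 78.8), Actn1 (57.8, range 54.4 to 63.6), Flnc (47.8, range 39.1 to 57.7), Acta2 (0.960, range 0.704 to 1.39), Tagln (0.697, range 0.487 to 0.976), Cnn1 (0.392, range 0.273 to 0.570) and Tpm2 (0.0591, range 0.0429 to 0.0833). Flna, Tpm1 and Actn1 were separated from each other in every line, Actn1 overlapped Flnc, Acta2 overlapped Tagln, Tagln overlapped Cnn1, and Cnn1 lay above Tpm2 in every line. Both tables put Flna, Tpm1, Actn1 and Flnc at the top in shPCBP1 cells, but they were normalized separately, and levels in CPM were not tested across them.

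Flnc remained high in every FAM3C KO line. It read 367 CPM in the unaltered shPCBP1 line, while CT clones 1 to 3 had 513, 543 and 373 CPM. It read 337, 345 and 356 CPM in FAM3C KO clones 1 to 3. All 3 FAM3C KO values lay below the lowest shPCBP1 value, by little, and the shPCBP1 lines spread over more than the gap. The log2 fold change was -0.35 (SE 0.281, 95% interval -0.98 to 0.27, adjusted p = 0.786).

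With limma, the FAM3C KO comparison called 0 of 7 members at an adjusted p under 0.07, where 0.309% of 12621 genes passed, and 0 had an unadjusted p under 0.05. Flnc was the single member of the 7 whose groups did not overlap, against 22.7% of all genes tested. The median log2 fold change of the members was -0.21, against -0.01 over all genes.

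Flna read 1088 CPM in the unaltered line, and the CT clones had 1070, 1021 and 1131 CPM. In FAM3C KO clones 1 to 3 it read 1267, 1086 and 1173 CPM and had a log2 fold change of 0.12 (95% interval -0.17 to 0.42, adjusted p = 0.872). The groups overlapped, as they did for Actn1 (0.13, 95% interval -0.14 to 0.39, adjusted p = 0.849) and Tpm1 (0.06, 95% interval -0.16 to 0.27, adjusted p = 0.933). The intervals of these 3 abundant genes reach no further from 0 than 0.42 on the log2 scale.

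The low genes were measured less closely. Acta2 was at 1.73, 1.80 and 1.73 CPM in FAM3C KO, inside the shPCBP1 range of 1.55 to 3.06 CPM, with a log2 fold change of -0.21 (95% interval -0.79 to 0.38, adjusted p = 0.896). Tagln (-0.27, 95% interval -1.12 to 0.59, adjusted p = 0.909) and Cnn1 (-0.45, 95% interval -1.29 to 0.38, adjusted p = 0.803) had intervals that include a change by more than 1 on the log2 scale. Tpm2 failed the filter and was at 4, 5 and 14 reads in FAM3C KO clones 1 to 3 and at 1 to 6 reads in the shPCBP1 lines.

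Of 62 other actin genes 52 were tested in FAM3C KO against shPCBP1, and with limma 0 passed the threshold, while 5 had an unadjusted p under 0.05. Fitted without the LIFR KO lines, 1040 genes passed in place of 39, and 6 other actin genes and 0 members were among them. The means of Srf (34.9 CPM in shPCBP1, 28.8 CPM in FAM3C KO, log2 fold change -0.27, adjusted p = 0.864), Mrtfa (68.8 and 58.1 CPM, -0.24, adjusted p = 0.751) and Mrtfb (54.9 and 51.2 CPM, -0.10, adjusted p = 0.872) did not pass.

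**Figure D4:**
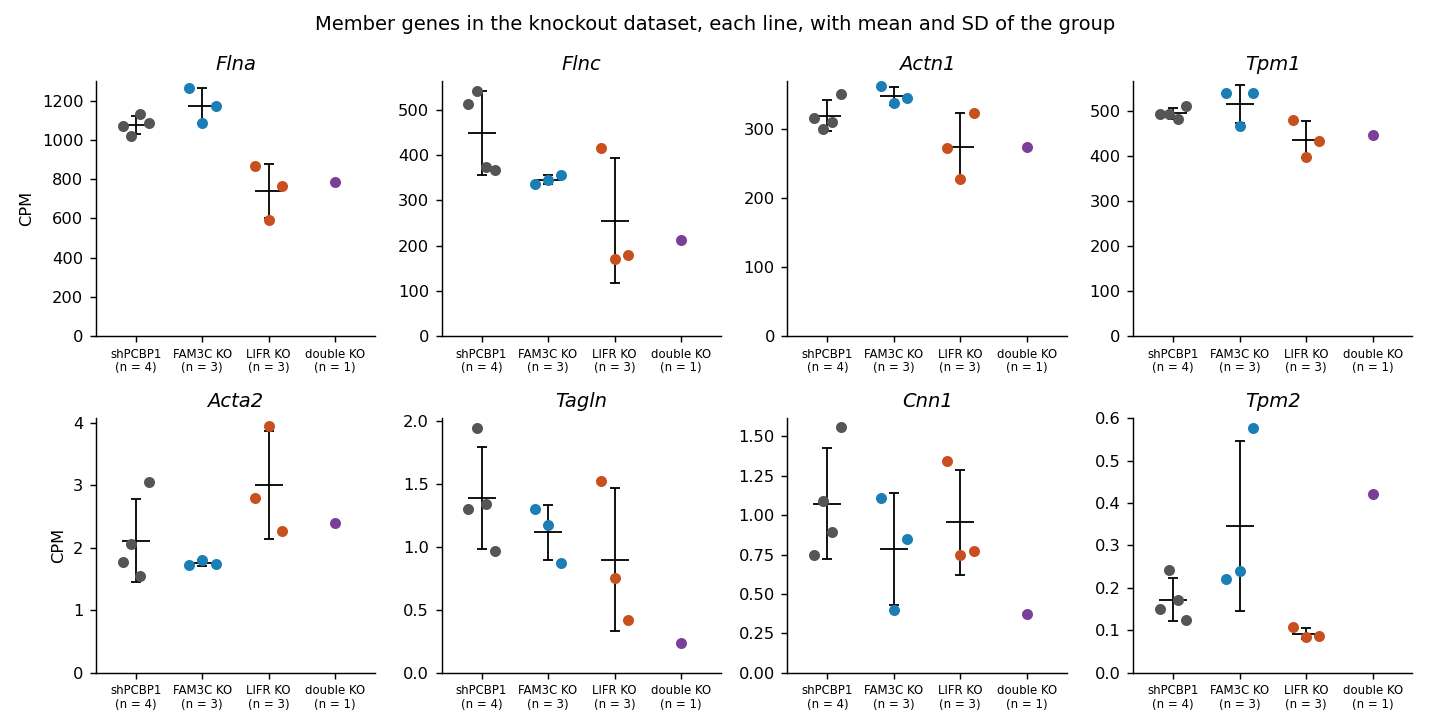
CPM of the 8 listed members in each line of the knockout dataset, with a bar at the group mean and an error bar of 1 SD where a group has more than 1 line; axes start at 0 and differ between panels. Flna is lower in all 3 LIFR KO clones than in all 4 shPCBP1 lines, and Flnc is near 170 and 179 CPM in LIFR KO clones 2 and 3 but at 416 CPM in clone 1.

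In LIFR KO the member that passed was Flna, with 865, 592 and 765 CPM in clones 1 to 3, all below the shPCBP1 minimum of 1021 CPM. The log2 fold change was -0.56 (SE 0.132, adjusted p = 0.0508), or a mean of 741 ± 138 CPM (SD, n = 3) against 1078 ± 45.7 CPM (SD, n = 4). It was the 1 of 7 members called in LIFR KO against shPCBP1, where 6.47% of 12621 genes were called and 5.55% were called lower. The log2 fold change over all genes had a median of -0.16, and the members' median was -0.23.

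The call of Flna was lost under several other settings. Median-ratio rescaling gave a log2 fold change of -0.39 (adjusted p = 0.0747) and quantile normalization -0.46 (adjusted p = 0.0725), and without the FAM3C KO lines in the fit the adjusted p was 0.121 at the same fold. A correction of each library for the GC content of the gene left a log2 fold change of -0.15 (adjusted p = 0.376), and LIFR KO clone 1, the clone without the GC deviation, differed by -0.32 from the mean of the shPCBP1 lines on the log2 scale, a value of 1 library with no test. Flna has a GC content of 54.0% in its longest annotated transcript, higher than 71.9% of tested genes. The call was also lost without FAM3C KO clone 1 or 3, without LIFR KO clone 2, or without any 1 of the 4 shPCBP1 lines, with adjusted p from 0.0851 to 0.176. The log2 fold change without LIFR KO clone 2 was -0.41. The summed epithelial markers ran from 1212 to 2092 CPM in LIFR KO against 2466 to 3166 CPM in shPCBP1, with the same 4 of 8 reaching 1 CPM. The keratins Krt8, Krt18 and Krt19 did not overlap between the groups, while Cdh1, at 268 to 344 CPM in LIFR KO and 292 to 346 CPM in shPCBP1, did. The part of GC content and of cell state in the result was not tested.

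The 3 LIFR KO clones did not have like levels of Flnc. It read 416 CPM in clone 1, inside the shPCBP1 range of 367 to 543 CPM, and 170 and 179 CPM in clones 2 and 3. The log2 fold change was -0.92 (SE 0.281, 95% interval -1.54 to -0.30, adjusted p = 0.0803), which missed the threshold of 0.07. Without clone 1 it was -1.34 (adjusted p = 1.61e-04), for clone 1 by itself it was -0.09, a value of 1 library with no test, and after the GC correction it was -0.32 (adjusted p = 0.352). Flnc has the highest GC content of the 9 members in the longest transcript, 58.4%, above that of 91.5% of tested genes. The clones with the lower values were those with the GC deviation. The part of GC content in the level of Flnc was not tested.

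The share of Flnc in the sum of Flna and Flnc compares genes within a library, although they also differ in GC content. Flnc made up 24.8% to 34.7% of the sum per kb in the shPCBP1 lines, 20.997% to 24.1% in FAM3C KO, 18.996% to 32.5% in LIFR KO and 21.3% in the double KO. The FAM3C KO lines lay below the shPCBP1 lines, and the LIFR KO lines overlapped them. All 11 lines lay above the 16.3% and 16.7% of the shPCBP1 libraries of the knockdown dataset, which was normalized apart from them.

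Tpm1 was the other member whose LIFR KO lines did not overlap the shPCBP1 lines. It read 479, 396 and 431 CPM in LIFR KO and 481 to 511 CPM in shPCBP1, a log2 fold change of -0.19 (95% interval -0.41 to 0.03, adjusted p = 0.191). That made 2 of 7 members without overlap, against 17.2% of all genes tested. After the GC correction the sign turned, to 0.03, and without LIFR KO clone 1 it was -0.26 (adjusted p = 0.0237). Actn1 was at 273, 228 and 324 CPM in LIFR KO and 301 to 352 CPM in shPCBP1 (-0.23, 95% interval -0.50 to 0.04, adjusted p = 0.186), with 0.13 after the correction.

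Acta2 was the one member with a higher mean in LIFR KO, at 2.79, 3.95 and 2.27 CPM against 3.06 CPM in the unaltered shPCBP1 line. The CT clones had 1.77, 2.06 and 1.55 CPM. Within shPCBP1 the unaltered line stood above the CT clones, and it overlapped LIFR KO. The log2 fold change was 0.50 (95% interval -0.08 to 1.09, adjusted p = 0.189), and 0.71 after the GC correction. Tagln ranged from 0.417 to 1.52 CPM in LIFR KO (-0.69, 95% interval -1.55 to 0.16, adjusted p = 0.210), with -1.12 (adjusted p = 0.0195) without clone 1 and -0.30 (adjusted p = 0.605) without clone 3, and Cnn1 from 0.749 to 1.34 CPM (-0.15, 95% interval -0.99 to 0.68, adjusted p = 0.781), both within or across the shPCBP1 range. Tpm2 gave 1 read in each LIFR KO library.

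**Figure D5:**
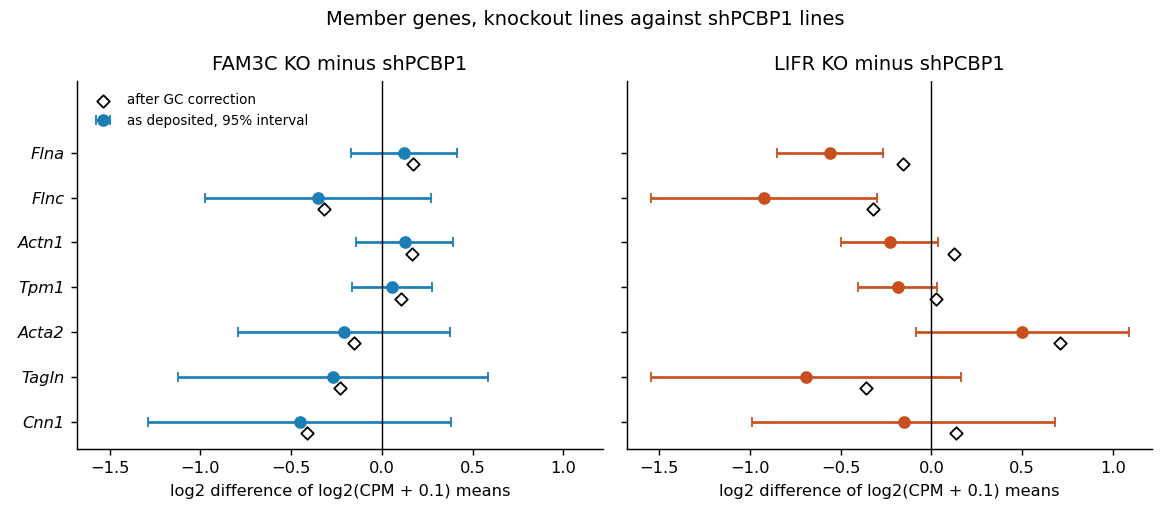
Log2 difference between FAM3C KO (left) or LIFR KO (right) and shPCBP1 for the 7 tested members, as points with 95% intervals from limma, and as open diamonds after the GC correction. In FAM3C KO all 7 intervals include 0. In LIFR KO those of Flna and Flnc do not, and the diamonds of Flna, Flnc, Actn1 and Tpm1 lie nearer to 0 or on its other side.

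Among the other actin genes 7 of 52 passed in LIFR KO against shPCBP1, all lower, which is 13.5% beside the 6.47% over all genes. Myh9, the heavy chain of nonmuscle myosin IIA, fell from a mean of 1445 to 833 CPM (log2 fold change -0.84, SE 0.196, adjusted p = 0.05005), and Actc1, a cardiac actin gene at a low level here, from 2.69 to 1.14 CPM (-1.16, SE 0.222, adjusted p = 0.0380). Smtn (smoothelin) fell from 109 to 57.2 CPM (-0.997, adjusted p = 0.0437), Myl6 (an essential myosin light chain) from 63.8 to 41.3 CPM (-0.62, adjusted p = 0.0504) and Actn4 from 362 to 264 CPM (-0.47, adjusted p = 0.0667). Mrtfa fell from 68.8 to 35.7 CPM (-0.98, SE 0.175, adjusted p = 0.0348). Srf missed the threshold, with 35.2, 13.2 and 13.5 CPM in clones 1 to 3 against 33.1 to 38.1 CPM in shPCBP1 (-0.91, adjusted p = 0.0816). Mrtfb was at a mean of 46.9 against 54.9 CPM (-0.24, adjusted p = 0.144). After the GC correction 0 of the 7 passed. The count was 0 without LIFR KO clone 2 or any 1 of the shPCBP1 lines, 2 without FAM3C KO clone 1 or 3, and 31 without LIFR KO clone 1.

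FAM3C KO and LIFR KO were also compared directly, since both were set against the same shPCBP1 lines. Flna was higher in FAM3C KO than in LIFR KO, with a log2 difference of 0.68 (SE 0.141, adjusted p = 0.0387), and was the 1 member called where 8.28% of 12621 genes were. It was 0.33 after the GC correction (adjusted p = 0.107), and the call was lost without any 1 of the FAM3C KO clones (adjusted p from 0.0805 to 0.148) or without LIFR KO clone 2 (0.53, adjusted p = 0.0924). Without the shPCBP1 lines in the fit the adjusted p was 0.200 at the same difference. The difference of Flnc was 0.57 (95% interval -0.10 to 1.23, adjusted p = 0.223) and that of Acta2 was -0.71 (95% interval -1.33 to -0.08, adjusted p = 0.137). Actn1 (0.36, 95% interval 0.07 to 0.64, adjusted p = 0.112) and Tpm1 (0.24, 95% interval 0.01 to 0.48, adjusted p = 0.162) did not pass. Nor did Tagln (0.42, adjusted p = 0.485) and Cnn1 (-0.30, adjusted p = 0.619). For Flnc the difference was 0.98 (adjusted p = 0.00135) without LIFR KO clone 1, 0.0037 after the GC correction, and -0.26 for LIFR KO clone 1 by itself, a value of 1 library with no test.

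Among the other actin genes 6 of 52 (11.5%, beside 8.28% over all genes) passed in the direct comparison, 5 higher and 1 lower in FAM3C KO. Over all genes 1045 passed in the fit of all groups, 0 without the shPCBP1 lines in the fit, 72 after the GC correction and 1 without FAM3C KO clone 3. Myh9 was at a mean of 1484 against 833 CPM (log2 difference 0.88, SE 0.209, adjusted p = 0.0448) and Mylk at 17.6 against 7.25 CPM (1.42, SE 0.407, adjusted p = 0.0693). The regulators Mrtfa (58.1 against 35.7 CPM, 0.74, adjusted p = 0.0513) and the cofilin kinase Limk1 (14.6 against 8.26 CPM, 0.88, adjusted p = 0.0522), were also higher. Pls1 was lower, at 1.86 against 7.26 CPM (-2.22, SE 0.567, adjusted p = 0.0526).

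The double KO, a single library that entered no fit, was at 785 CPM for Flna, 212 CPM for Flnc, 446 CPM for Tpm1 and 274 CPM for Actn1. Each was below the lowest of the 4 shPCBP1 lines, but the share of all genes below it was not computed. Actn4 (218 CPM), Srf (13.6 CPM) and Mrtfa (31.6 CPM) were below it too, while Tpm4 (219 CPM) lay inside the shPCBP1 range. The double KO also has the GC deviation (Spearman correlation -0.718), and the part of GC content in these levels was not tested. Tagln (0.239 CPM) and Cnn1 (0.375 CPM) were lower than in any other line of the dataset, on 4 and 7 reads. Its Acta2, at 2.39 CPM, was inside the shPCBP1 range.

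Across the 11 lines the members did not move as 1 group. The Pearson correlation of log2(CPM + 0.1) was 0.92 between Flna and Tpm1, 0.85 between Flna and Actn1 and 0.74 between Flna and Flnc, and it was -0.77 between Flna and Acta2. The points share the 3 libraries with the GC deviation. The genes most like Flnc over the 11 lines were Commd1 (r = 0.976), Taf6 (r = 0.973) and Card19 (r = 0.971), and 646 tested genes had r over 0.9 with it. The GC contents of Commd1, Taf6 and Card19 were 45.3%, 55.0% and 58.2%. Commd1 read 18.3 to 19.7 CPM in LIFR KO clones 2 and 3 and the double KO and 25.2 to 30.6 CPM in the other lines, which is the same division of lines as for Flnc. Nearest to Acta2 were Tm4sf20 (r = 0.905), Gm8251 (r = 0.889) and Baat (r = 0.868), and 1 gene had r over 0.9.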

How the data were processed

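RNA-Seq libraries were rRNA-depleted and directional and were sequenced as paired-end reads. The authors aligned them with Bowtie2 in Partek Flow to mouse GRCm38 (mm10), analysed expression with DESeq2 and deposited values in CPM per library; whether counting used strand is not given in the sources used here. Columns of the knockdown table in which the authors give group mean CPM and their fold change, a ratio, were not used.

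CPM were transformed to log2(CPM + 0.1), only genes averaging 0.5 CPM or more entered the fit, and group means were fitted with limma 3.58.1 (R 4.3.3, mean-variance trend), the 3 groups of the knockout dataset together. Benjamini-Hochberg adjusted p under 0.07, the study's threshold, made a call. No count test was run, since only 88.2% to 93.0% of low values, and not all, were whole reads within 0.02 of a step. Library totals and reads were implied from the value of 1 read, and for counting intervals, which cover counting error only, reads were rounded. Coordinates, exon bases and GC content are from GENCODE M21 (GRCm38), because 14269 of 14795 gene starts of the knockdown dataset equalled it and 302 of 13870 of the knockout dataset did. The GC content of a gene is that of its longest transcript. Figures were drawn with matplotlib 3.10.9.

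The members, the actin, SRF and marker lists and the tests were chosen with earlier results of these data known. Genes named were the members, the targeted genes, Srf, Mrtfa, Mrtfb and Myocd, up to 2 rises and 2 falls of largest size per list and comparison among genes past the threshold, and the 3 genes most correlated with Flnc and with Acta2; Tpm3 and Tpm4, paralogs of Tpm1, and single marker genes were named after their values were seen. A gene of the crosslinker list is not reported here and is in none of the list counts. The fit was tested on simulated data. Alternatives were a pseudocount of 1, median-ratio rescaling, quantile normalization, no filter or a mean of at least 1 CPM, an adjusted p under 0.05, only the groups compared, a replicate block, a GC correction (loess, span 0.3) without and with the block, each library left out, and LIFR KO clone 1 alone; subtraction of each library's lowest value was added after seeing the data.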

Additional observations from a re-analysis of the deposited data

Results flagged for a closer look

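Flna was flagged because its change differed between FAM3C KO and LIFR KO under the same contrast with shPCBP1, by a log2 difference of 0.68 in the direct test (limma, adjusted p = 0.0387).

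Tpm2 was flagged in the double KO, a library outside the comparisons, where it read 0.422 CPM (8 reads), above all 4 shPCBP1 lines, which ranged from 0.125 to 0.242 CPM; FAM3C KO clone 3 was higher still, at 0.576 CPM.

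No member had a shPCBP1 line far enough from the other 3 lines to be flagged as an outlier.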

How the results depend on the processing

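Of FAM3C KO against shPCBP1, 39 of all genes were called. The count was 21 with a mean of at least 1 CPM, 15 with a replicate block, 234 with the GC correction, 8 with both GC correction and block, 1040 with only the groups compared, 1050 with LIFR KO clone 1 alone, and 3 to 354 with 1 line left out. Members called were 0 under each of these, and other actin genes called (0) were 1 with a pseudocount of 1 or the GC correction, 6 with only the groups compared or clone 1 alone, and 0 to 2 with 1 line left out. Of LIFR KO against shPCBP1, 816 genes were called, and the count was 478 with median-ratio rescaling, 10 with the replicate block, 41 with the GC correction, 3 with both, 34 with only the groups compared, 280 with clone 1 alone, 359 at an adjusted p under 0.05, and 5 to 7232 with 1 line left out. The 1 member called there, Flna, became 0 members under all of these, with quantile normalization too, and 0 to 4 with 1 line left out. The 7 other actin genes became 4 with median-ratio rescaling, 3 at an adjusted p under 0.05, 1 with clone 1 alone and 0 with the block, the GC correction, both, or only the groups compared, and ranged from 0 to 31 with 1 line left out. The highest counts in these ranges, 7232 genes, 31 actin genes and 4 members (Flna, Flnc, Tagln and Tpm1), came without LIFR KO clone 1. Of FAM3C KO against LIFR KO, 1045 genes and 1 member were called. Both counts were 0 with the replicate block, with block and GC correction, and with only the groups compared, the GC correction gave 72 genes and 0 members, an adjusted p under 0.05 gave 587 genes, and leaving out 1 line gave 1 to 6674 genes and 0 to 4 members. In the knockdown dataset the 42 other actin genes called became 36 to 42 with 1 library left out.

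Signs that turned were those of Acta2 in FAM3C KO with block and GC correction (0.030), Tagln in LIFR KO with clone 1 alone (0.17), and Cnn1 in LIFR KO with quantile normalization (0.15), the block (0.030), the GC correction (0.13), both (0.31) and clone 1 alone (0.34), with a range of -0.40 to 0.030 over lines left out, turning without the unaltered shPCBP1 line. Tpm1 in LIFR KO turned to 0.026 with the GC correction and 0.041 with the block as well, and Actn1 to 0.13 and 0.17. In the direct comparison, Flnc (-0.26) and Tagln (-0.43) turned with clone 1 alone, and Cnn1 ranged from -0.57 to 0.064 over lines left out, turning without FAM3C KO clone 2. Median-ratio rescaling took out the shift of -0.16 over all genes and left Flna in LIFR KO at -0.39 (adjusted p = 0.0747). With the replicate block the adjusted p of Flna was 0.151 in LIFR KO against shPCBP1 and 0.0955 in FAM3C KO against LIFR KO. No other alternative turned a sign of a member.

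With clone 1 alone, that library is assumed to vary like those of the other groups. The cause of these changes was not tested, except that a stricter threshold calls fewer genes by construction. In the knockout dataset, deviations from the group means correlated at -0.181 to 0.154 for same-numbered libraries and at -0.265 to 0.220 for the others. In the knockdown dataset the values were 0.0512 and -0.0512, equal in size by construction with 2 libraries a group. No pairing by number was seen in the knockout dataset, but values centred within groups cannot exclude it. Depth limits Acta2, Tpm2 and Myl9 in the knockdown dataset, at 6 reads or fewer a library.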
